A study of Homo sapiens with 42 samples.

Results

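The genes of G2 and mitosis, the programme that takes a cell from replicated DNA to 2 daughter cells, were followed in a FLT3-mutant leukemia line under a FLT3 inhibitor, an mTOR inhibitor and stromal conditioned medium. The members were 44 genes chosen by name, among them the cyclins and kinases of mitotic entry, the spindle checkpoint, the mitotic kinesins and the kinetochore, and each was the row of the count table that carried its symbol. All 44 were among the 57353 gene names of the table, and 43 passed the filter on low counts that left 12939 genes for testing. The choice used no measured value, although earlier results of these data were known when it was made. MOLM-13, a human acute myeloid leukemia line that carries the FLT3 internal tandem duplication and whose genotype is labelled WT, was cultured for 12 h with or without 3 nM quizartinib (AC220, a FLT3 kinase inhibitor) and 10 nM everolimus (an inhibitor of mTOR complex 1). The cells were in RPMI with serum or in hBMSC-CM, a mixture of RPMI with medium conditioned by the stromal line HS-5. Poly(A) RNA was sequenced from the whole lysate (input) and from heavy polysomes, the gradient fraction of messages that carry many ribosomes, of 21 cultures. There were 3 cultures in each of 7 conditions: vehicle, quizartinib and quizartinib plus everolimus (combo) in RPMI, and vehicle, quizartinib, everolimus and combo in hBMSC-CM. Everolimus given singly in RPMI was not analysed here. All conditions are of 1 cell line, cultured in bulk, and the study describes its replicates as biological.

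Mitosis is driven by cyclin-dependent kinase 1 with its A-type and B-type cyclins, which CDC25 phosphatases switch on and the anaphase-promoting complex switches off by destroying cyclin and securin. Transcripts of these genes are low in G1, rise through S phase and peak in G2 and M, under the MuvB complex, B-MYB and FOXM1, which act through the CHR and CCAAT elements of their promoters, while the DREAM form of the same complex represses them in resting cells. FLT3-ITD signalling keeps leukemia cells cycling, so the level of these transcripts is commonly read as a sign of how many cells are dividing.

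Libraries held 19.4 to 37.2 M counts for input and 21.5 to 38.8 M for polysomes, and the members together took 0.313% to 0.469% of the input counts and 0.234% to 0.408% of the polysome counts. Levels are CPM, each gene's share of the counts of a library whose total is scaled by TMM, and changes are log2 differences from edgeR's quasi-likelihood test over all 42 libraries, called at a Benjamini-Hochberg adjusted p under 0.05. The 10 myeloid and leukemia markers, among them CD33, FLT3, SPI1 and HOXA9, had counts in all 42 libraries. The 3 everolimus cultures stood apart from all others in their closeness to each other, with a median SD of 0.0982 on the log2 scale over all genes in input against 0.201 to 0.312 in the other conditions. In the other 6 conditions, deviations from the condition means went with the replicate number, so a fit with the number as a block within each fraction is given wherever it changed a result. PRC1, a spindle midzone crosslinker, was the member below the filter, with 0 to 39 counts a library, and 61.9% of its exon bases lie in other annotated genes (ENSG00000284946 and PRC1-AS1). NUSAP1, a spindle microtubule protein, shares 86.8% of its exon bases with neighbours, so its level of 68 to 622 counts a library is uncertain as well. Another 13 members share some exon sequence and 11 have named pseudogenes, among them MAD2L1, AURKB, BUB3 and CDC20, which the counting could have given part of their reads.

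Promoters of members on which the results turn are printed from RefSeq (GRCh38.p14), as the 250 bases before the RefSeq start, with CHR letters (TTTGAA) and CCAAT letters of either strand in capitals. They are chr1:43358731-43358980 (CDC20, plus strand), chr10:60778081-60778330 (CDK1, plus strand), chr4:121823884-121824133 (CCNA2, minus strand), chr4:120066849-120067098 (MAD2L1, minus strand), chr17:8210226-8210475 (AURKB, minus strand) and chr20:3786701-3786950 (CDC25B, plus strand).
CDC20: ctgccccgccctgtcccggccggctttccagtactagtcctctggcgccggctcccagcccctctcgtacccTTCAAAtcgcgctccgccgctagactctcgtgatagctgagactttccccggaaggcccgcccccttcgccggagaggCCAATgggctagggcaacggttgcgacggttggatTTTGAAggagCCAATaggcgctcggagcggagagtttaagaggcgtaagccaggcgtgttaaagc
CDK1: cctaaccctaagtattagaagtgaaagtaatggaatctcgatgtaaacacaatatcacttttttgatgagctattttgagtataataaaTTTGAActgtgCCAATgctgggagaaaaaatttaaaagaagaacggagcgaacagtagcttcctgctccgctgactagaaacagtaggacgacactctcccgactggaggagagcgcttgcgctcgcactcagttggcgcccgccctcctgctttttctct
CCNA2: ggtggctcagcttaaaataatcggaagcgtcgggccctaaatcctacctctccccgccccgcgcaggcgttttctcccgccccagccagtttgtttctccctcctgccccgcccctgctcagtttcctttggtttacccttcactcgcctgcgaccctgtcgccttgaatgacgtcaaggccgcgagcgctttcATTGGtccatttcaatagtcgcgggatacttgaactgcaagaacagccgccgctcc
MAD2L1: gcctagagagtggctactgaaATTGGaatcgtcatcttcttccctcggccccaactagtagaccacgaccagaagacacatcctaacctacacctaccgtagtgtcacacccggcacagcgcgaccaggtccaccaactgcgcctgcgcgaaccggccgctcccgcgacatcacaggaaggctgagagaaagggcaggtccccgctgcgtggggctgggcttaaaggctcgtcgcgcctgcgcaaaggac
AURKB: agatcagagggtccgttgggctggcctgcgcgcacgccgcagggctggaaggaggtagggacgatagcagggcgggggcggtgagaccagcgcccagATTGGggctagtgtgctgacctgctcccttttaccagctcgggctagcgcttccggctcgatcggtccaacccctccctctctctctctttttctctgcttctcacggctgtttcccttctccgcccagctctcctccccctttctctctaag
CDC25B: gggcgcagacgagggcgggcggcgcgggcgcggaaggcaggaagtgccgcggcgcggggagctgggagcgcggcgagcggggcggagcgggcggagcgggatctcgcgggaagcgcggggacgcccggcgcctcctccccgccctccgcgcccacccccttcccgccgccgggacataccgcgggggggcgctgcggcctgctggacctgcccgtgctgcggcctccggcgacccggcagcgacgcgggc

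The CDC20 window holds both elements more than once, with CHR letters 178 and 65 bases and CCAAT letters 100 and 55 bases before the start. In CDK1 the CHR and the CCAAT letters lie next to each other, 161 and 150 bases before the start. CCNA2, MAD2L1 and AURKB each hold a single CCAAT box in this window, and neither set of letters is in that of CDC25B. The AURKB window and much of the CDC25B window lie inside the longer gene models of GENCODE, so these letters say nothing of the sequence before the starts of those models. Of the 37 members with a RefSeq promoter, 19 held TTTGAA (51.4%), against 13.6% of all 27305 promoters of the same length and 8.24% of the 8943 promoters of tested genes. CCAAT was found in 28 of 37 (75.7%, against 33% of all promoters and 35.6% of those of tested genes), and both together in 17 (45.9%, against 4.85% and 3.47%). The CHR variants TTCGAA and TTTAAA were in 13 (35.1%, against 12.5% and 8.2%), and the E2F letters TTTGGCGC, TTTCCCGC, TTTGCCGC or TTTCGCGC in 2 (5.41%, against 2.79% of all promoters and 4.65% of those of tested genes). Letters in a window are a description of sequence and not of binding.

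In untreated cells in RPMI the members spanned a wide range of input levels per kilobase of their canonical transcript. CDC20, which activates the anaphase-promoting complex, was highest at 136 ± 17.2 CPM per kb (SD, n = 3), followed by securin, PTTG1, at 113 ± 17.4 and the ubiquitin-conjugating enzyme UBE2C at 81.7 ± 10.5. PLK1, the kinase that drives entry and exit, stood at 75.9 ± 10.1 and AURKB, the kinase of the chromosomal passenger complex, at 71.3 ± 7.86, levels that overlap with UBE2C within their spread. CCNB1, the main mitotic cyclin, was at 54.2 ± 9.82 and its partner CDK1 at 29.7 ± 5.24. The kinesins KIF14 (2.24 ± 0.655) and KIF18A (1.69 ± 0.322) closed the order of the members that passed the filter. Between the highest and the lowest of the 7 condition means of input CPM, the members differed by 1.18-fold to 2.75-fold, the widest being MAD2L1.

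**Figure D1:**
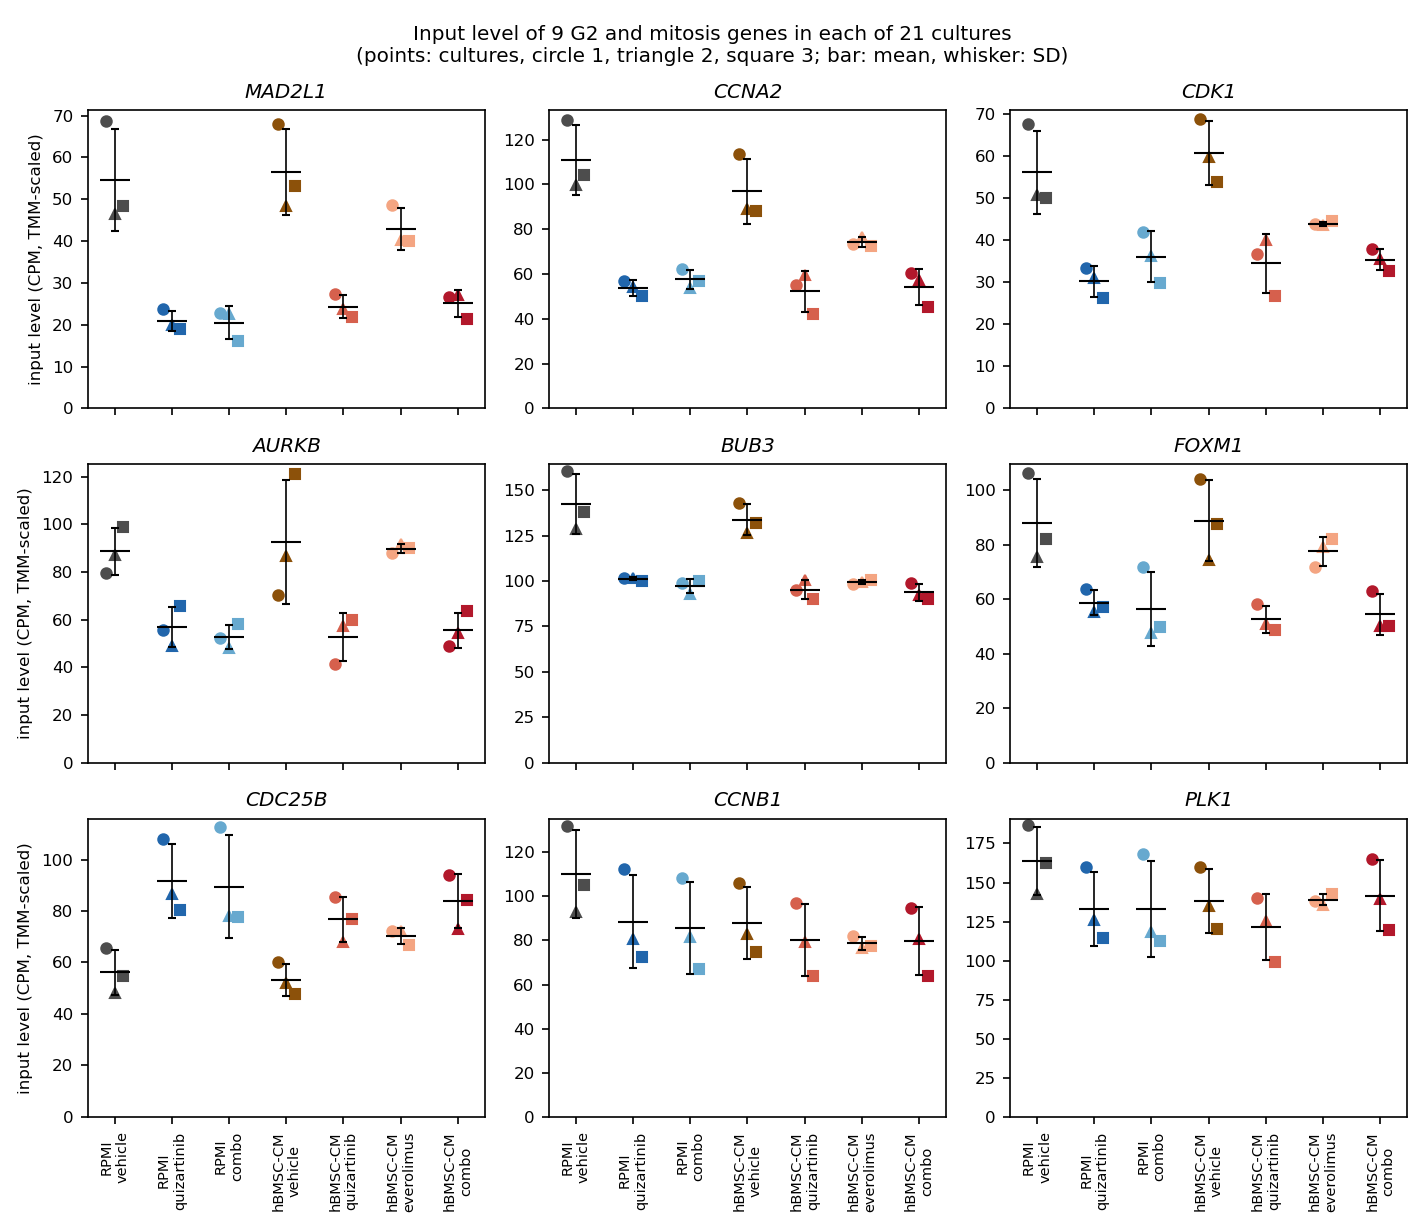
Input level of 9 members in each culture (vertical axis, TMM-scaled CPM from 0; horizontal axis, the 7 conditions; points, cultures; bars, condition means). MAD2L1, CCNA2 and CDK1 lie lower in every quizartinib and combo culture than in the vehicle cultures of the same medium, CDC25B lies higher, and CCNB1 and PLK1 overlap.

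Quizartinib against vehicle asks what blocking FLT3 does to the cells, and in RPMI it lowered a small set of members while most of the programme did not pass the test. Of the 43, 5 fell and 1 rose in input (14% of the members, against 34.6% of all genes tested). As these are bulk samples, fewer cells in G2 or mitosis and less of these RNAs per cell cannot be told apart.
MAD2L1 (ENSG00000164109, chr4:120055623-120066858, minus strand, GENCODE on GRCh38), the checkpoint protein that holds CDC20 back until kinetochores are attached, had 68.6, 46.6 and 48.4 CPM in the vehicle cultures and 23.7, 20.01 and 19.04 under quizartinib. All 3 treated cultures lay below all 3 controls, and the log2 change was -1.38 (SE 0.20, adjusted p = 1.05e-06 in edgeR's quasi-likelihood test, Benjamini-Hochberg adjusted).
CCNA2 (ENSG00000145386, chr4:121816444-121823883, minus strand), the cyclin of S phase and G2, went from 129, 99.5 and 104 CPM to 57.0, 54.0 and 49.99, again with no overlap, a log2 change of -1.05 (SE 0.32, adjusted p = 0.00973, same test). A tail of 9.24% of its exon bases is shared with EXOSC9 on the opposite strand.
CDK1 (ENSG00000170312, chr10:60778331-60794852, plus strand), the mitotic kinase itself, had 67.5, 50.7 and 50.1 CPM in vehicle and 33.4, 31.1 and 26.2 under the drug, so the groups did not overlap. Its log2 change was -0.89 (SE 0.24, adjusted p = 0.00313, same test).
AURKB (ENSG00000178999, chr17:8204733-8210600, minus strand) fell from 79.7, 87.2 and 99.1 CPM to 55.6, 49.2 and 65.7, by 0.64 on the log2 scale (SE 0.19, adjusted p = 0.00827, same test). BUB3 (ENSG00000154473, chr10:123154402-123170467, plus strand), a checkpoint scaffold, fell from 161, 129 and 138 CPM to 102, 101 and 100.3, by 0.49 (SE 0.13, adjusted p = 0.00268, same test). Neither gene's groups overlapped.
The riser was CDC25B (ENSG00000101224, chr20:3786772-3806121, plus strand), the phosphatase that starts CDK1 activation, at 65.5, 48.2 and 54.9 CPM in vehicle and 108, 86.6 and 80.5 under quizartinib, a log2 change of 0.71 (SE 0.26, adjusted p = 0.0306, same test). Its call was lost when quizartinib culture 1 or 2 or vehicle culture 2 or 3 was left out (log2 changes of 0.57, 0.75, 0.61 and 0.69), and the call of AURKB was lost without quizartinib culture 2 (-0.55). Without the filter on low counts AURKB (-0.62) and BUB3 (-0.47) lost theirs.

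By role, 2 of the 8 genes of the cyclin-CDK engine fell (CCNA2 and CDK1) and 1 rose, 2 of the 5 checkpoint genes fell (MAD2L1 and BUB3) and 1 of the 5 genes of the Aurora and passenger group fell (AURKB). None of the 3 anaphase genes, 8 kinesins, 5 kinetochore genes, 5 spindle proteins, 2 cytokinesis genes or 2 chromosome genes passed the test, of which 0 were at an unadjusted p under 0.05.
CCNB1, for instance, had 132, 92.8 and 105 CPM in vehicle and 112, 80.8 and 72.6 under the drug (log2 change -0.31, 95% interval -0.80 to 0.17), and the groups overlapped. PLK1 differed by -0.30 (interval -0.86 to 0.26), AURKA, the spindle pole kinase, by -0.04 (-0.43 to 0.36) and MKI67, the proliferation antigen Ki-67, by -0.04 (-0.72 to 0.64). These intervals leave room for changes in either direction. The long kinetochore proteins pointed upward without a call: CENPF had 222, 221 and 267 CPM in vehicle and 441, 364 and 485 under quizartinib (log2 change 0.86, SE 0.43, adjusted p = 0.123 in edgeR's quasi-likelihood test), and CENPE, a kinetochore motor, was at 51.4, 40.0 and 43.6 against 95.2, 66.6 and 87.8 (0.89, SE 0.47, adjusted p = 0.143). Neither overlapped between groups. Over the 43 members, 31 estimates were negative and the median was -0.26, beside a median of 0.08 over all genes tested.

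**Figure D2:**
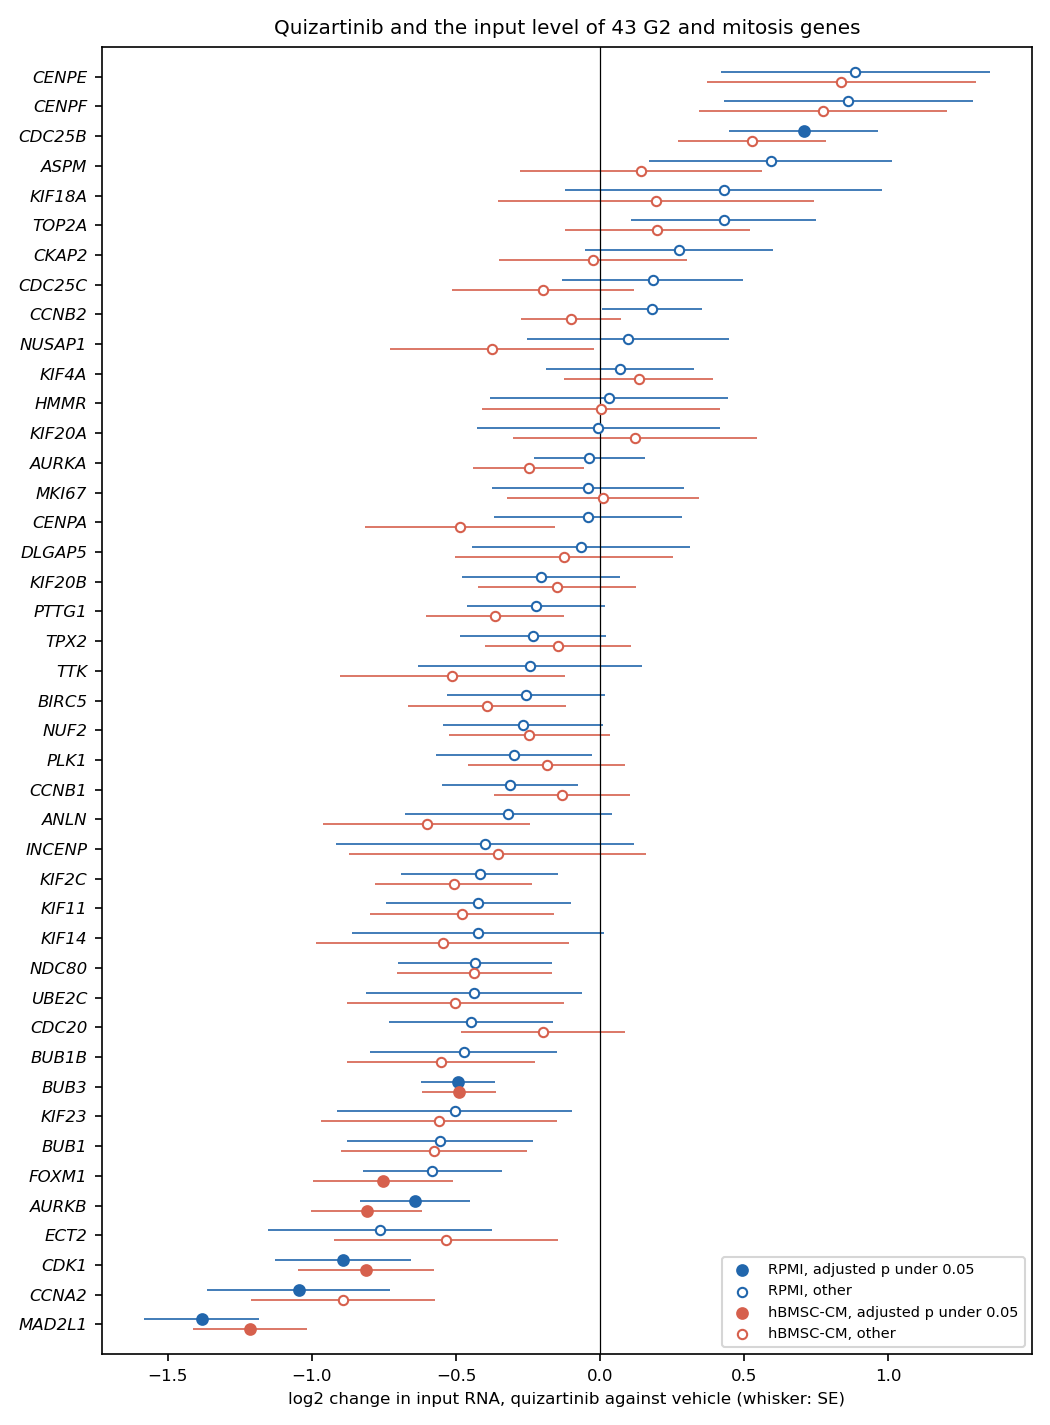
Log2 change in input under quizartinib for 43 members (vertical axis, genes in the order of their change in RPMI; horizontal axis, log2 quizartinib over vehicle; bars, SE of the fit; filled points, called at adjusted p under 0.05) in RPMI and in hBMSC-CM. The 5 members that fell in RPMI are MAD2L1, CCNA2, CDK1, AURKB and BUB3, and most other points lie within 1 unit of 0 in both media.

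With the replicate number as a block within each fraction, the RPMI input comparison called 14 members, 3 higher and 11 lower (32.6%, against 48.9% of all genes in that fit). The calls added were FOXM1, the transcription factor of the programme (-0.57, adjusted p = 0.00905), BUB1, a checkpoint kinase (-0.57, adjusted p = 0.0192), CDC20 (-0.46, adjusted p = 0.016), UBE2C (-0.44, adjusted p = 0.0454), KIF2C, a microtubule depolymerase (-0.41, adjusted p = 0.0246), and ECT2, which switches on RhoA for cytokinesis (-0.83, adjusted p = 0.00794), all lower, and CENPE (0.89, adjusted p = 0.0135) and CENPF (0.86, adjusted p = 0.0243), both higher. In either fit the share of members called was below the share over all genes. The 14 stromal markers summed to 3.46 to 7.58 CPM in RPMI vehicle input and 14.5 to 40.9 under quizartinib in RPMI, most of it COL1A1 (a mean of 9.68 CPM over all libraries) and TAGLN (4.28), while COL3A1, LUM and POSTN were at 0 in all 42 libraries. Mitochondrial transcripts took 3.17% to 7.59% of the counts in the former and 4.70% to 9.27% in the latter, and the part of either in these changes was not tested.

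Whether stromal medium alters that response was asked by the same comparison in hBMSC-CM, where quizartinib lowered 5 members and raised 0 (11.6%, against 12.3% of all genes tested). MAD2L1 went from 68.0, 48.4 and 53.1 CPM to 27.3, 23.8 and 21.9 (log2 change -1.22, SE 0.20, adjusted p = 0.000114 in edgeR's quasi-likelihood test, Benjamini-Hochberg adjusted). CDK1 had 68.8, 59.8 and 53.7 CPM in vehicle and 36.8, 40.2 and 26.7 under the drug (-0.81, SE 0.24, adjusted p = 0.0197), and AURKB 70.3, 86.6 and 121 against 41.4, 57.5 and 59.7 (-0.81, SE 0.19, adjusted p = 0.0046). The groups did not overlap for any of these 3 genes. FOXM1 (ENSG00000111206, chr12:2857680-2877174, minus strand), at 104, 74.4 and 87.6 CPM in vehicle, had 58.2, 51.0 and 48.7 under quizartinib (-0.75, SE 0.24, adjusted p = 0.036), and BUB3 143, 126 and 132 against 95.3, 101 and 89.9 (-0.49, SE 0.13, adjusted p = 0.00996). CCNA2 just missed the threshold (-0.89, SE 0.32, adjusted p = 0.0597), although its 114, 88.9 and 88.2 CPM in vehicle did not overlap with 55.0, 59.4 and 42.2 under the drug, and CDC25B stood at 0.53 (SE 0.26, adjusted p = 0.183). The median over the 43 members was -0.36, with 33 negative, beside 0.01 over all genes.
Apart from MAD2L1, these calls depended on single cultures or on the processing. Without vehicle culture 1 only MAD2L1 and AURKB of the 5 kept theirs (CDK1 -0.72, BUB3 -0.44, FOXM1 -0.62), without quizartinib culture 3 CDK1 (-0.66) and FOXM1 (-0.70) lost theirs, without vehicle culture 3 AURKB (-0.58) and FOXM1 (-0.77), and without quizartinib culture 2 FOXM1 (-0.73). Without the filter on low counts BUB3 (-0.46), CDK1 (-0.79) and FOXM1 (-0.73) were not called, in a fit of only the groups compared BUB3 (-0.48) and AURKB (-0.80) were not, by library size alone BUB3 (-0.43) was not, and without the everolimus libraries FOXM1 (-0.72) was not. With the replicate block 11 members were called (25.6%, against 29.4% of all genes in that fit), the additions being CCNA2 (-0.89, adjusted p = 0.000644), BUB1 (-0.58, adjusted p = 0.0279), UBE2C (-0.50, adjusted p = 0.0397) and KIF2C (-0.50, adjusted p = 0.0131), lower, and CDC25B (0.53, adjusted p = 0.0149) and CENPE (0.84, adjusted p = 0.0312), higher. The stromal markers summed to 4.14 to 7.94 CPM in hBMSC-CM vehicle input and 12.7 to 25.9 under quizartinib in it, and their part was not tested.

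The response itself did not separate the media for any member. The difference between media in the quizartinib effect on input called 0 of 43 in edgeR's quasi-likelihood test, with 0 at an unadjusted p under 0.05 (1.96% of all genes were called), and the estimates ran from -0.47 to 0.25. Medium alone called 0 members without drug (against 1.51% of all genes), with 0 at an unadjusted p under 0.05 and estimates from -0.36 to 0.28. Under quizartinib, hBMSC-CM against RPMI also called 0 (against 8.16% of all genes), with 1 at an unadjusted p under 0.05. The lowest estimate was that of CENPA, the centromeric histone, at -0.67 (adjusted p = 0.270). With the replicate block and without the everolimus libraries, a setting chosen after the data were seen, 6 members were lower in hBMSC-CM than in RPMI under quizartinib, namely AURKA, CCNB2, CDC25C, CENPA, CKAP2 and TOP2A (14% of the members, below the 23.1% of all genes called in that fit).

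Everolimus on top of quizartinib moved no member past the threshold in input. Combo against quizartinib called 0 in RPMI (against 0.00773% of all genes) and 0 in hBMSC-CM (against 0.24%). At an unadjusted p under 0.05 there were 0 members in RPMI and 1 in hBMSC-CM. In hBMSC-CM 38 of the 43 estimates were positive, with a median of 0.23 beside 0.00 over all genes, and the highest was KIF14, a midzone kinesin, at 0.81 (SE 0.44, adjusted p = 0.924). TOP2A, the topoisomerase that untangles sister chromatids, had 179, 135 and 67.5 CPM under quizartinib in hBMSC-CM and 262, 235 and 123 with the combination, higher in each numbered pair, though the groups overlapped. Its log2 change was 0.70 (SE 0.32, adjusted p = 0.742 in edgeR's quasi-likelihood test), and with the replicate block it was the 1 member called (0.73, SE 0.21, adjusted p = 0.04997, against 2.94% of all genes in that fit).
Everolimus alone in hBMSC-CM called 0 members against vehicle (0.41% of all genes were called), with 2 at an unadjusted p under 0.05. BUB3 was at -0.43 (adjusted p = 0.150) and CDK1 at -0.47. Against everolimus, adding quizartinib lowered 2 members (4.65%, against 11.1% of all genes tested): MAD2L1, at 48.7, 40.2 and 40.0 CPM under everolimus and 26.6, 27.2 and 21.5 with both drugs (-0.77, SE 0.20, adjusted p = 0.00742), and AURKB, at 87.9, 91.7 and 90.02 against 49.1, 54.2 and 63.6 (-0.69, SE 0.19, adjusted p = 0.0145). In both genes every combo culture lay below every everolimus culture. The call of MAD2L1 was lost without everolimus culture 1 (-0.70), and that of AURKB without combo culture 1 (-0.63) or 2 (-0.67) or everolimus culture 2 (-0.68) or 3 (-0.69). The everolimus cultures enter both comparisons, and the hBMSC-CM combo cultures enter those against quizartinib and everolimus, so these results share samples. The everolimus cultures also differed in their spread and did not pair by number with the others. Whether they come from a separate run is not known, and a drug effect cannot be told apart from such a difference.

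Central regulators that were not called under quizartinib without a block are given here in input CPM for cultures 1, 2 and 3 of each condition. PLK1 had 187, 143 and 162 in RPMI vehicle, 159.7, 126 and 114 in RPMI quizartinib, 168, 118 and 113 in RPMI combo, 160.1, 135 and 119.9 in hBMSC-CM vehicle, 140.3, 126 and 98.9 in hBMSC-CM quizartinib, 138, 136 and 143 in hBMSC-CM everolimus and 165, 139.7 and 119.7 in hBMSC-CM combo. Drug and vehicle cultures overlapped in each medium, and the everolimus cultures lay closer together than those of any other condition. CDC20 had 244, 192 and 239 in RPMI vehicle, 203, 154 and 138 in RPMI quizartinib, 193, 139 and 113 in RPMI combo, 195, 172 and 175 in hBMSC-CM vehicle, 188, 144 and 140.4 in hBMSC-CM quizartinib, 173, 167 and 168 in hBMSC-CM everolimus and 178, 142 and 138 in hBMSC-CM combo. The RPMI vehicle cultures held the highest mean, and each drug condition in RPMI reached into their range with 1 culture. AURKA, the kinase of the spindle poles, had 66.0, 55.8 and 51.7 in RPMI vehicle, 62.4, 56.2 and 50.6 in RPMI quizartinib, 61.6, 55.6 and 53.6 in RPMI combo, 60.8, 50.01 and 47.5 in hBMSC-CM vehicle, 48.6, 47.8 and 36.9 in hBMSC-CM quizartinib, 44.7, 42.02 and 50.3 in hBMSC-CM everolimus and 57.6, 51.0 and 46.2 in hBMSC-CM combo. BUB1, the kinase that recruits checkpoint proteins to kinetochores, had 100.2, 61.4 and 70.7 in RPMI vehicle, 71.7, 45.3 and 41.2 in RPMI quizartinib, 64.3, 47.4 and 48.8 in RPMI combo, 90.7, 60.6 and 56.2 in hBMSC-CM vehicle, 61.9, 37.4 and 39.8 in hBMSC-CM quizartinib, 60.2, 53.2 and 59.1 in hBMSC-CM everolimus and 64.7, 53.2 and 40.9 in hBMSC-CM combo. In both genes every drug condition overlapped with the vehicle cultures of the same medium. KIF20A had 64.1, 45.3 and 50.9 in RPMI vehicle, 67.7, 49.6 and 42.3 in RPMI quizartinib, 65.4, 50.8 and 47.1 in RPMI combo, 62.2, 42.004 and 30.2 in hBMSC-CM vehicle, 62.6, 48.3 and 35.2 in hBMSC-CM quizartinib, 59.2, 58.2 and 61.1 in hBMSC-CM everolimus and 78.7, 68.6 and 48.2 in hBMSC-CM combo. MKI67, which coats mitotic chromosomes, had 482, 437 and 530.2 in RPMI vehicle, 532, 436 and 441 in RPMI quizartinib, 582.5, 411 and 454 in RPMI combo, 524, 461 and 365 in hBMSC-CM vehicle, 519, 422 and 419 in hBMSC-CM quizartinib, 553, 500.0 and 506 in hBMSC-CM everolimus and 601, 550.0 and 438 in hBMSC-CM combo. It had the highest CPM of any member in RPMI vehicle, where levels are not divided by length. The level of CCNB1 in the conditions not given above was 108, 81.4 and 67.2 in RPMI combo, 106, 82.7 and 74.9 in hBMSC-CM vehicle, 97.0, 79.3 and 64.1 in hBMSC-CM quizartinib, 82.0, 76.5 and 77.6 in hBMSC-CM everolimus and 94.9, 80.7 and 64.1 in hBMSC-CM combo.
For the genes that changed or leaned upward, the remaining conditions were as follows. CDK1 had 42.01, 36.4 and 29.9 in RPMI combo, 43.8, 43.6 and 44.5 in hBMSC-CM everolimus and 37.9, 35.5 and 32.8 in hBMSC-CM combo. In hBMSC-CM the everolimus cultures lay below all vehicle and above all combo cultures. FOXM1 had 106, 75.4 and 81.9 in RPMI vehicle, 63.8, 55.1 and 57.1 in RPMI quizartinib, 71.9, 47.4 and 49.9 in RPMI combo, 71.7, 79.0 and 82.0 in hBMSC-CM everolimus and 63.0, 50.01 and 50.3 in hBMSC-CM combo. CENPF, a kinetochore and nuclear matrix protein, had 466, 438 and 489 in RPMI combo, 254, 253 and 193 in hBMSC-CM vehicle, 443, 369.5 and 385 in hBMSC-CM quizartinib, 378, 397 and 386 in hBMSC-CM everolimus and 571, 479 and 522 in hBMSC-CM combo, with its highest mean in the hBMSC-CM combo cultures. TOP2A had 151, 116 and 109 in RPMI vehicle, 223, 168 and 114 in RPMI quizartinib, 239, 175 and 133 in RPMI combo, 143, 119.8 and 69.6 in hBMSC-CM vehicle and 143, 142 and 151 in hBMSC-CM everolimus. Vehicle and drug cultures of TOP2A overlapped in RPMI.

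Among 112 other genes of G2 and mitosis, 37 fell and 2 rose in RPMI input under quizartinib, with a median of -0.46. The 34.8% called lay close to the 34.6% of all genes. The largest fall was that of CDC25A, a phosphatase that acts from the entry into S phase (-3.20, SE 0.24). By role, 14 of 29 further kinetochore subunits fell, as did 7 of 13 entry kinases, phosphatases and inhibitors, 5 of 12 DREAM and MuvB subunits, 6 of 20 cohesin and condensin genes, 4 of 17 genes of the anaphase-promoting complex and 1 of 21 further spindle and cytokinesis genes. The larger of the 2 rises was that of TROAP (0.68, SE 0.23). In hBMSC-CM 22 of the 112 fell and 0 rose (19.6%, against 12.3% of all genes), with a median of -0.44 and CDC25A at -1.76. Of 43 DNA replication genes, which act in S phase, 39 fell in RPMI (90.7%, median -1.80, lowest MCM10, which helps activate the replicative helicase, at -3.66) and 32 in hBMSC-CM (74.4%, median -1.23). Averaged over the 43 members that passed the filter, log2 CPM in input was 5.84 ± 0.19 in RPMI vehicle and 5.65 ± 0.18 under quizartinib (SD, n = 3), while the replication genes went from 6.23 ± 0.07 to 4.26 ± 0.08. The difference between the lists was not tested.

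The other measurement was how each message was shared between the heavy polysomes and the input, which for any gene is a difference of log2 CPM within a condition. A value above 0 says that the gene takes a larger share of the polysome library than of the input library, and it is not a count of ribosomes. The 90 bases in the middle of the coding sequence are shown for both ends of the order in RPMI vehicle cells, from the canonical transcripts of GENCODE on GRCh38, with G and C in capitals, since base composition and length of the coding sequence were the features along which members spread. CDC20 and AURKB were the members highest in heavy polysomes relative to input, and CENPE and KIF18A the lowest.
CDC20: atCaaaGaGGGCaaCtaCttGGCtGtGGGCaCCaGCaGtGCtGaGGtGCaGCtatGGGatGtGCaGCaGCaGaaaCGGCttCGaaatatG
AURKB: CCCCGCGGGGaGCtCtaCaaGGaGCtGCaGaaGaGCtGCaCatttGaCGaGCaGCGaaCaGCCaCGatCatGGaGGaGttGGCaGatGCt
CENPE: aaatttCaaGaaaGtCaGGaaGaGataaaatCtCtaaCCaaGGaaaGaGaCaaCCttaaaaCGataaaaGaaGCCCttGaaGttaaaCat
KIF18A: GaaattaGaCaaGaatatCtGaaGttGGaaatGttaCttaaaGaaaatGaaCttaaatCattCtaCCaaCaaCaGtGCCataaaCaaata

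These 90 bases are 53.3% G and C in CDC20, 58.9% in AURKB, 32.2% in CENPE and 27.8% in KIF18A. They come from coding sequences of 1497, 1032, 8103 and 2694 bases. Such a window need not match the whole: in CENPF, also low in polysomes, it is 54.4%, against 41.0% over the coding sequence. In RPMI vehicle cells 7 members were higher and 23 lower in heavy polysomes than in input (65.4% of all genes differed in either direction). CDC20 had 1028, 645 and 440.4 CPM in the polysome libraries of the 3 vehicle cultures against 244, 192 and 239 in input, a difference of 2.08, 1.74 and 0.88 within the cultures (log2 1.65, SE 0.29, adjusted p = 1.20e-05 in edgeR's quasi-likelihood test). AURKB followed at 1.48 (SE 0.19), CDC25B at 1.45 (SE 0.26) and PLK1 at 1.37 (SE 0.28). At the other end CENPE had 1.38, 2.51 and 3.87 CPM in polysomes against 51.4, 40.0 and 43.6 in input, differences of -5.15, -3.96 and -3.47 (log2 -4.11, SE 0.54, adjusted p = 1.32e-07, same test). KIF18A, a kinesin that dampens chromosome movement, stood at -3.62 (SE 0.66) on polysome levels of 0.333, 0.0364 and 1.06 CPM, CENPF at -3.14 (SE 0.47) and ASPM, a spindle pole protein, at -3.08 (SE 0.46). No value of these groups overlapped between fractions in CDC20 or CENPE.
By role, all 3 anaphase genes (CDC20, PTTG1 and UBE2C) were higher in RPMI vehicle polysomes, 6 of the 8 kinesins and 4 of the 5 kinetochore genes were lower, and so were both cytokinesis and both chromosome genes, with 0 of these 17 higher. TOP2A was at -1.70 and MKI67 at -2.34. The cyclin-CDK engine was spread in both directions around a median of 0.17, with CDC25B and PLK1 higher, CCNA2 lower at -0.80, and CCNB1 at 0.19 (SE 0.24) and CDK1 at -0.23 (SE 0.23) not called.

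**Figure D3:**
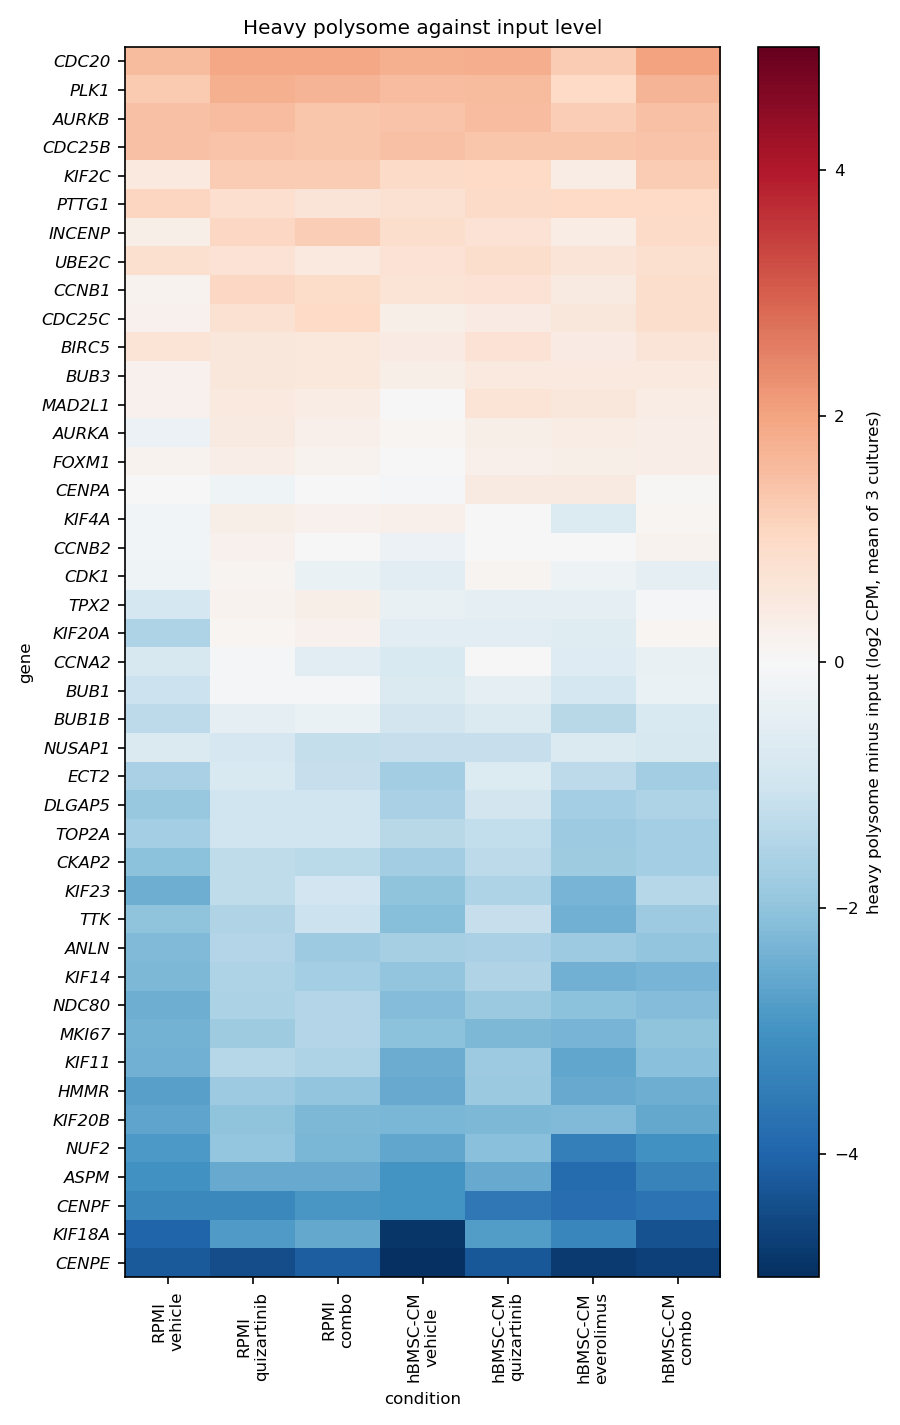
Heavy polysome minus input (colour, log2 difference of CPM; red, higher in polysomes; blue, lower) for 43 members (rows) in the 7 conditions (columns). The order of rows is nearly the same in every condition, from CDC20, PLK1, AURKB and CDC25B at one end to CENPE, KIF18A, CENPF and ASPM at the other.

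The order was much the same in all conditions, with Spearman's rho of 0.932 to 0.993 across the 43 members in the 21 pairs of conditions, which come from 1 cell line and share each gene's sequence. In the other conditions the calls were 12 higher and 16 lower in RPMI quizartinib (57.9% of all genes), 10 and 18 in RPMI combo (59.3%), 8 and 21 in hBMSC-CM vehicle (63.6%), 11 and 17 in hBMSC-CM quizartinib (58.7%), 7 and 21 in hBMSC-CM everolimus (58.6%) and 12 and 18 in hBMSC-CM combo (63%). AURKB, CDC20, CDC25B, PLK1 and PTTG1 were higher in all 7 conditions with TMM scaling. By library size alone, given below, not all of them kept that call in hBMSC-CM vehicle. ANLN, ASPM, CENPE, CENPF, CKAP2, HMMR, KIF11, KIF14, KIF18A, KIF20B, MKI67, NDC80, NUF2, TOP2A and TTK were lower in all 7, and they include the long scaffold and motor proteins of the kinetochore, spindle and cleavage furrow. CCNB2, CENPA and FOXM1 were called in none, and the remaining 20 in some conditions, with 0 called in both directions. How many of all genes were called alike in all 7 conditions was not counted. Within a condition 65.1% to 69.8% of the members were called, near the shares of all genes, so this constancy is not shown to be particular to the members.
Scaling by library size alone, instead of TMM, moved the median of all genes from -0.06 to -0.61 in RPMI vehicle and from 0.03 to -0.29 in RPMI quizartinib. Under it the calls were 5 higher and 29 lower in RPMI vehicle (63.7% of all genes differed), 7 and 19 in RPMI quizartinib (56.6%), 6 and 21 in RPMI combo (57.3%), 4 and 27 in hBMSC-CM vehicle (63.2%), 5 and 23 in hBMSC-CM quizartinib (58.8%), 5 and 26 in hBMSC-CM everolimus (56.8%) and 6 and 22 in hBMSC-CM combo (62%).

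**Figure D4:**
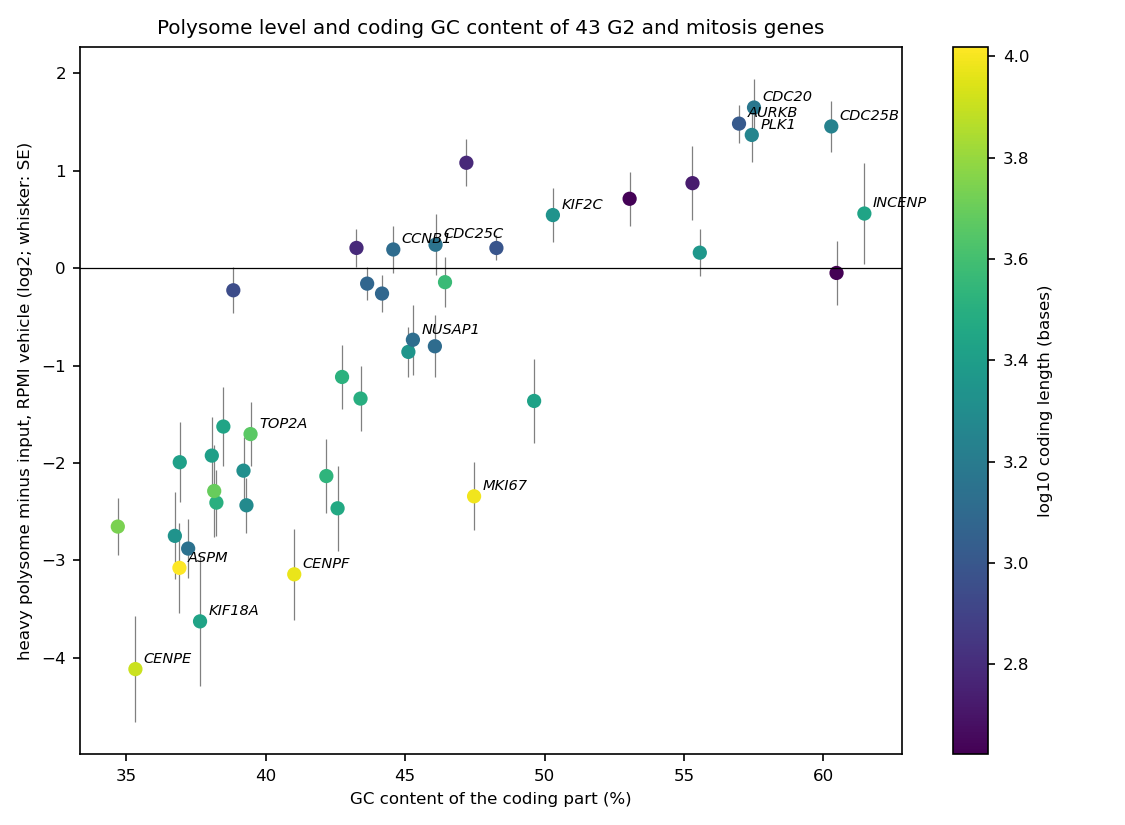
Heavy polysome minus input in RPMI vehicle cells (vertical axis, log2) against the share of G and C in the coding sequence (horizontal axis, percent) for 43 members, coloured by log10 coding length in bases. Values climb from CENPE and KIF18A at low G and C to CDC20, AURKB, CDC25B and PLK1 at high G and C, with Spearman's rho of 0.841.

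Across the 43 members the polysome minus input value in RPMI vehicle cells rose with the G and C share of the coding sequence, which ran from 34.7% to 61.5%, with Spearman's rho of 0.841, and fell with coding length, which ran from 420 to 10431 bases, with rho of -0.660. The rank correlation of the 2 features with each other was -0.465, and the genes share their libraries, so these are descriptions across genes. The same held over the 10809 tested genes with a coding length, at 0.724 for G and C and -0.222 for length. Members with a coding sequence over 3000 bases and under 42% G and C (ASPM, CENPE, CENPF, KIF11, KIF14, KIF20B and TOP2A) had a median of -2.65, and the 269 tested genes in the same window -2.23. Members under 1500 bases and over 50% G and C (AURKB, BIRC5, CDC20, CENPA and UBE2C) had a median of 0.87, and the 3559 such genes 0.97.

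Whether the drug changed that sharing was asked by the difference of the polysome and the input change. Under quizartinib in RPMI the estimates leaned toward the polysomes: 38 of 43 were positive, with a median of 0.73 beside 0.15 over all genes. Mean log2 CPM over the members was 5.33, 4.71 and 5.56 in the quizartinib polysome libraries and 4.87, 4.68 and 4.97 in vehicle. Across the former the median SD of the members was 0.691, the largest of the 14 groups, against 0.434 over all genes. The part of culture 3, the highest of these, in the lean was not tested. In edgeR's quasi-likelihood test without a block 0 members were called, against 1.55% of all genes. At an unadjusted p under 0.05 there were 11 members, and the share of all genes at that looser threshold is not given here. With the replicate number as a block within each fraction 9 members rose and 0 fell (20.9%, against 11.7% of all genes in that fit). With a block for each culture 0 members were called (1.62% of all genes). The study reports that quizartinib cut RNA yield more in heavy polysomes than in input. A rise here is thus a larger share of a smaller pool. Whether the amount of a message on polysomes rose or fell was not measured.
KIF20A, a kinesin of the central spindle (ENSG00000112984, chr5:138178719-138187723, plus strand), had polysome minus input values of -1.01, -2.35 and -1.22 in the RPMI vehicle cultures and 0.33, -0.78 and 0.72 under quizartinib. Every treated culture lay above every control, and each numbered pair rose. Its change was 1.57 (SE 0.60, adjusted p = 0.189) without the block and 1.61 (SE 0.31, adjusted p = 0.000767) with it, both in edgeR's quasi-likelihood test.
TPX2, which activates AURKA on the spindle, went from -0.88, -0.998 and -0.73 to 0.10, -0.37 and 0.80 (with the block 1.07, SE 0.25, adjusted p = 0.00556). CCNB1 went from 0.17, 0.18 and 0.22 to 0.99, 0.71 and 1.36 (0.84, SE 0.20, adjusted p = 0.00657). In both genes the treated cultures were higher than all controls. AURKA stood at -0.30, -0.59 and 0.06 in vehicle and 0.53, 0.17 and 0.65 under quizartinib (0.72, SE 0.18, adjusted p = 0.00941). KIF11, the motor that pushes the spindle poles apart, had -2.82, -2.16 and -2.21 in vehicle and -1.92, -2.06 and -0.27 under the drug (1.04, SE 0.32, adjusted p = 0.0318). It remained far below 0 in cultures 1 and 2.
The others called with the block were the kinetochore partners NDC80 (1.02, adjusted p = 0.0337) and NUF2 (0.99, adjusted p = 0.0429), BUB1 (0.99, adjusted p = 0.0226) and KIF2C (0.78, adjusted p = 0.018). BUB1 had -1.59, -0.73 and -0.94 in vehicle and -0.18, -0.83 and 0.71 under quizartinib, which overlap. KIF23, the partner of RACGAP1 at the midzone, had an estimate of 1.49 without the block (SE 0.59, adjusted p = 0.202) and was not called in either fit. For the 5 members higher in polysomes in all conditions with TMM, the estimates were 0.45 (PLK1), 0.34 (CDC20), 0.08 (AURKB), 0.03 (CDC25B) and -0.25 (PTTG1). Of these, 0 were called in either fit. Leaving out the everolimus libraries from the blocked fit, a setting chosen after the data were seen, left 7 members called (14% of all genes were called in that fit).

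**Figure D5:**
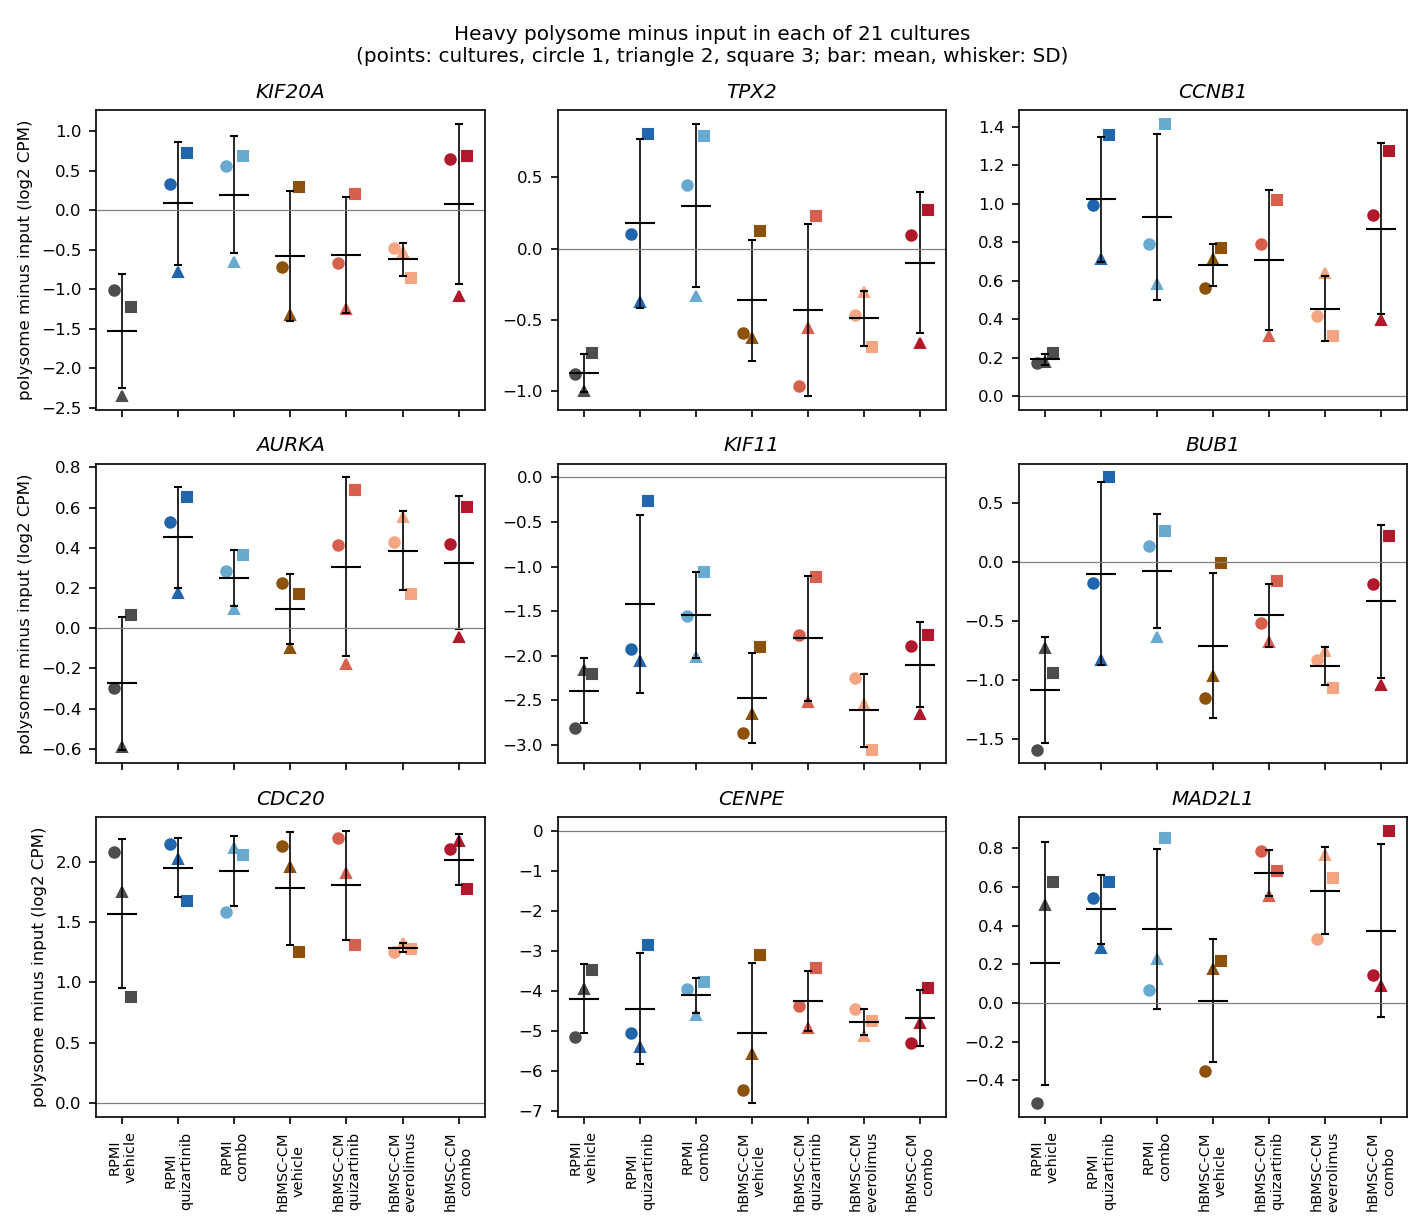
Heavy polysome minus input in each culture (vertical axis, log2 difference of CPM; horizontal axis, the 7 conditions; points, cultures; bars, condition means) for 9 members. In RPMI, KIF20A, TPX2 and CCNB1 lie higher in all 3 quizartinib cultures than in all 3 vehicle cultures, while CDC20 and CENPE overlap.

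The change in sharing followed length across genes as well. In RPMI under quizartinib its Spearman's rho with coding length was 0.460 over the members and 0.505 over the 10809 tested genes with a coding length, and with the G and C share -0.508 and -0.385. Scaling moved the level: the median change over all genes was 0.15 with TMM, 0.01 with relative log expression factors and 0.38 with library size alone, and that of the members was 0.73, 0.58 and 0.99. In hBMSC-CM the median under quizartinib was 0.25 beside 0.10 over all genes, with KIF20A at -0.72, -1.33 and 0.30 in vehicle and -0.67, -1.25 and 0.21 under the drug, which overlap, and 0 members were called (2 at an unadjusted p under 0.05). The difference between media in this change was -1.56 for KIF20A (SE 0.85) and -1.15 for TPX2 (SE 0.51), with 0 members called in edgeR's quasi-likelihood test and 1 at an unadjusted p under 0.05. Across the members it fell with coding length at rho of -0.534, and across all genes at -0.531.
No member was called in the polysome minus input change of the remaining 6 comparisons, with 0 at an unadjusted p under 0.05 for the medium without drug, the medium under quizartinib and combo against quizartinib in RPMI, 2 for combo against quizartinib in hBMSC-CM, 3 for everolimus and 2 for combo against everolimus. In these 6, in quizartinib in hBMSC-CM and in the difference between media, 0% of all genes were called.

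Many members, but not all, moved together across cultures. Over the 21 input libraries, which differ in condition and in replicate number, the Pearson correlation of a member's log2 CPM with the mean of the other members was 0.936 for PLK1, 0.925 for TPX2 and 0.915 for BUB1B, a checkpoint pseudokinase. It was 0.09 for AURKB, 0.02 for CDC25B, -0.09 for CENPE, -0.20 for CENPF and -0.35 for NUSAP1. The tested genes outside the members whose input pattern was most like the members' mean were GTSE1 (0.930), IPO5 (0.929), SPDL1 (0.926), DCAF17 (0.916), RACGAP1 (0.904), PARN (0.899), PTDSS1 (0.897), CKAP2L (0.892) and SUZ12 (0.887), out of 8597 candidates. These values describe the 21 libraries and mix differences between conditions with those between replicate numbers.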

How the data were processed

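Total RNA of whole lysates and RNA of heavy polysome fractions from 21 MOLM-13 cultures (3 in each of 7 conditions, 42 libraries) was measured by RNA-seq; cells were given cycloheximide before harvest. The authors made poly(A)-selected libraries, sequenced them as pairs on a NovaSeq6000, trimmed with BBDuk, aligned with STAR 2.6.0a to Ensembl hg38 (release 96) and deposited raw gene counts with no normalization; the strand setting of the counting is not given in the sources used here, so reads of overlapping genes on opposite strands may not be told apart. Poly(A) selection and reads without molecular identifiers limit the values to relative shares, and intervals cover the spread between these samples only, which the study describes as biological replicates.

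Rows sharing a name (150 names) were summed, and a gene was tested if its mean reached 1 count and also 1 CPM (12939 genes). All columns matched a sample. In R 4.3.3, edgeR 4.0.16 fitted 14 group means to all libraries (TMM, robust quasi-likelihood, no block, 28 residual degrees of freedom), and p was adjusted over all genes by Benjamini-Hochberg (0.05). Polysome changes were the interaction with the fraction. Log2 CPM used a prior count of 2. On counts simulated for these libraries, the fit was tested before use. Coding features came from GENCODE canonical transcripts (GRCh38), motifs from RefSeq promoters, and Spearman's rho from scipy 1.17.1. Alternatives were DESeq2 1.42.0, limma 3.58.1 (voom), other scalings and filters, replicate blocks, a block per culture, only the groups compared, and leaving out each culture.

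The members and lists were chosen with earlier results of these data known. All members could be named. Values in every library were given for CCNB1, CDK1, PLK1, FOXM1, AURKA, CDC20, BUB1, KIF20A, CENPF, TOP2A and MKI67 in input and, per comparison with a call, for the 2 called members with the largest rise and fall. Other lists were named by their largest called rise and fall, and the 10 genes with at least 10 mean input CPM and the highest Pearson correlation with the members' mean as likest, of which 1 is not reported here. Members beyond these were given values after these were seen. Same-numbered samples deviated together in all 6 comparisons without everolimus (correlation of deviations from group means over genes, 0.347 to 0.658 in input and 0.156 to 0.715 in polysomes), and not in those with it, so the replicate number was read as pairing samples in the former. The everolimus libraries were left out as an alternative chosen after seeing the data.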

Additional observations from a re-analysis of the deposited data

Results flagged for a closer look

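No member passed the test of a difference between media in its response to quizartinib. Among the other lists, 7 genes had a larger fall under quizartinib in RPMI than in hBMSC-CM input, by edgeR's quasi-likelihood test of the difference itself, Benjamini-Hochberg adjusted. The difference, as the log2 change in hBMSC-CM minus that in RPMI, was 1.44 for CDC25A (adjusted p = 0.0065), 1.69 for MCM4 (0.000451), 1.56 for MCM6 (0.0272), 1.69 for CDC6 (0.0244), 1.51 for GINS2 (0.00857), 1.52 for FEN1 (0.00227) and 1.10 for CHAF1A (0.0343). CDC25A, which acts from the entry into S phase, was the 1 gene called of the 112 other genes of G2 and mitosis (0.893%). The other 6 were of the 43 DNA replication genes (14%), and 1.96% of all genes were called.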

How the results depend on the processing

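Fits differed mostly in how many members passed. With the replicate number as a block within each fraction, the count of members called rose from 6 to 14 for quizartinib in RPMI input, from 0 to 9 for its polysome minus input change, from 5 to 11 in hBMSC-CM input, from 0 to 1 for combo against quizartinib in hBMSC-CM input, from 0 to 1 for everolimus input, from 2 to 4 for combo against everolimus input and from 0 to 1 for its polysome change; everolimus samples were not paired in the data, so the last 3 share only a number. This block moved no other count of members by over 1.5 times. A replicate block over both fractions called 3 in the RPMI polysome change and 1 in everolimus input. The block within each fraction without the everolimus libraries called 15, 7 and 15 in the first 3 of these, 6 for the medium under quizartinib in input, 1 for combo against quizartinib in hBMSC-CM input and 1 for the difference between media in the polysome change. Only the groups compared called 18 (4 higher, 14 lower) for quizartinib in RPMI input and 8 for combo against everolimus input. The share of all genes called in that fit is not given here. Calls over all genes moved across the alternatives as well, from 3384 to 7070 for quizartinib in RPMI input and 1161 to 4517 in hBMSC-CM input. For combo against everolimus they ran from 1251 to 3719 in input and 0 to 440 in the polysome change. They ran from 169 to 1807 for quizartinib in the RPMI polysome change and 44 to 675 for everolimus input. For combo against quizartinib in hBMSC-CM input the range was 0 to 606, and for the medium under quizartinib in input 816 to 2988. For the difference between media in the polysome change it was 0 to 146. The member counts of this section are therefore not read as a result about the members. Without a filter on low counts 1 was called in the RPMI polysome change and 1 in combo against everolimus input, and the 6 of RPMI input were MAD2L1, CCNA2 and CDK1, lower, and CDC25B, CENPE and CENPF, higher. The 5 of hBMSC-CM input under that setting were MAD2L1, AURKB and CCNA2, lower, and CENPE and CENPF, higher. DESeq2 called 1 in everolimus input. The cause of these differences was not tested. Leaving out 1 culture gave 4 to 6 calls for quizartinib in RPMI input, 2 to 6 in hBMSC-CM input and 1 to 2 for combo against everolimus input. Per library total instead of TMM, 33 of 77 condition levels of named members moved by over 1 SD. BUB3 in hBMSC-CM vehicle polysomes against input turned to -0.21 under library size alone. MAD2L1, CCNA2 and CDK1 kept their calls in RPMI in all 17 alternatives run, and MAD2L1 also in hBMSC-CM. With 3 cultures a condition, a member without a call cannot be taken as unchanged, and PRC1 and, in polysomes, KIF18A were also limited by depth.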
